A study of Mus musculus with 3 samples.

Results

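The untreated (CTL) culture of MC3T3-E1 cells was described across its genes, with no comparison between conditions. MC3T3-E1 is an established cell line from mouse calvaria, the flat bone of the skull roof, and it was labelled as a wild type preosteoblast with no special treatment. The series held 3 RNA-seq libraries, CTL, Ti (titanium particles) and Ti+Se-Met (particles with selenomethionine), and only CTL was used here. The study examined how selenomethionine acts on the bone loss caused by wear particles of implants. The genes described were those with a CTL level of at least 1 FPKM (fragments per unit of transcript length, scaled to the mapped total of each library), which were 10940 of the 15287 genes listed in the table (71.6%). Because FPKM is divided by transcript length, levels of different genes could be compared on this scale.

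There was 1 CTL library, so the spread between cultures is unknown, and no value has an SD or a p-value. A cell line in culture also lacks the neighbouring cells of bone, and although the study's methods describe particle treatment in incomplete medium, no label states the medium of the CTL library. The steps of the lowest values gave an estimated depth of 14300000 fragments, with 150 bases subtracted from each transcript length. Depths from 13950000 to 14650000 fitted nearly as well, a range that is not a confidence interval. With 0 bases subtracted the estimate was 11500000, outside that range. At 14300000 fragments, 1 fragment was worth 0.0699 FPKM in a transcript with 1 kilobase of usable length. The intervals given with low values are 95% exact Poisson intervals on the estimated fragments and cover counting error only. For a gene listed at 0, the floor given is the level that 3 fragments would have made. A low level in such a bulk library can come from few cells that express the gene or from little RNA in each cell, and these cannot be told apart.

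Osteoblasts are the bone-forming cells and arise from mesenchymal progenitors. The transcription factor Runx2 commits these progenitors to bone, and Sp7 (osterix) acts after it. Preosteoblasts divide and secrete collagen type I, mature osteoblasts add mineralizing proteins such as alkaline phosphatase, bone sialoprotein and osteocalcin, and osteocytes are the cells that become buried in the matrix. The same progenitors can also give cartilage, fat and muscle, so the markers of these lineages serve as a check on what a culture holds.

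All 5 markers that go with the label were at 1 FPKM or more, which is a description and not an independent check, since they were chosen together with the label. Postn (periostin, a matrix protein of periosteum and preosteoblasts) stood at 2904 FPKM and was the gene of rank 3 among all listed genes. Col1a2 (the α2 chain of collagen type I) was at 2688 FPKM and rank 4. Col1a1 (its α1 chain) was at 1333 FPKM and rank 29, and Spp1 (osteopontin, a phosphoprotein of bone matrix) was at 1261 FPKM and rank 33. Runx2, as a transcription factor, had a much lower level of 26.8 FPKM (25.6 to 27.9) at rank 3077, which is still above the median of 13.9 FPKM over the 10940 genes.

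Promoters are shown for 4 of the label markers, whose levels run from 26.8 FPKM (Runx2) to 2904 FPKM (Postn). Col1a1 is left out because the promoter set held no entry for it. The sequences are from RefSeq on GRCm38.p6 and hold the 250 bases before the annotated start, 5′ to 3′ on the strand of the gene. Capitals mark matches, on either strand, to 4 motifs: the TATA box (TATAAA), the core of RUNX sites (AACCACA), the CCAAT box (CCAAT) and the GC box bound by Sp1 (GGGCGG). For Postn the second of 2 listed starts is shown (chr3:54360857-54361106, + strand), for Col1a2 the listed start (chr6:4505368-4505617, + strand), for Spp1 the first of 2 (chr5:104434861-104435110, + strand) and for Runx2 the listed start (chr17:44814628-44814877, − strand).
Postn: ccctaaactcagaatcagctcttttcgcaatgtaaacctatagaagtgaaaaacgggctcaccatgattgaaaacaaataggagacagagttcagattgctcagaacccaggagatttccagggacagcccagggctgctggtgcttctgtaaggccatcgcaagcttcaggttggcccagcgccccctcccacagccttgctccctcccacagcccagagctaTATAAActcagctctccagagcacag
Col1a2: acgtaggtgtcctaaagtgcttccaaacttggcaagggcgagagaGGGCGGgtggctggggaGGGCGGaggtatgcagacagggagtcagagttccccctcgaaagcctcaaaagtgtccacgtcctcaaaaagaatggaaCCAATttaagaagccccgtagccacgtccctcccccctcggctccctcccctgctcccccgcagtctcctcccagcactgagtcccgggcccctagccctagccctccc
Spp1: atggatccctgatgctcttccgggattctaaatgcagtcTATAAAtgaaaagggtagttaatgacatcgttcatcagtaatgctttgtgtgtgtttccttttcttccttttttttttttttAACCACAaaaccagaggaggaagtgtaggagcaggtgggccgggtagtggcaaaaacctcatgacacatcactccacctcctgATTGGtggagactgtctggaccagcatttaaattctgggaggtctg
Runx2: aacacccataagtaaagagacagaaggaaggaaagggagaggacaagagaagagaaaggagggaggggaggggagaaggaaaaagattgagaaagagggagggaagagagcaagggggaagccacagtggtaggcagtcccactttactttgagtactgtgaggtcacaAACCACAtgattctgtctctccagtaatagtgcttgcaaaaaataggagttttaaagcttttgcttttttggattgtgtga

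The Postn promoter held a TATA box 26 bases before the start. That of Col1a2 held no TATAAA but had GC boxes 205 and 188 bases before the start and a CCAAT box 109 bases before it, and another on the opposite strand began at position 1 of the transcribed part. In the Spp1 promoter a RUNX core lay 129 bases before the start, a TATAAA 211 bases before it and a CCAAT box on the opposite strand 46 bases before it. The Runx2 promoter held a RUNX core 81 bases before the start and 2 more beyond it, at positions 23 and 31 of the transcribed part. No printed match overlapped another. Over windows of 300 bases around the start, 250 before and 50 after, TATAAA was found in 13.6% of all 32851 mouse promoters in the table and AACCACA in 5.27%, so either match is a description of letters and not of a bound site.

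Levels in the library ranged over 3.88 orders of magnitude among the 10940 genes. Their median was 13.9 FPKM, and the middle 50% lay between 6.21 and 30.3 FPKM. Of all listed genes, 6711 reached 10 FPKM, 664 reached 100 FPKM and 56 reached 1000 FPKM. The last 56 genes held 20.5% of the summed FPKM, and 460 genes held 50%. A further 3527 genes lay above 0 and under 1 FPKM, and 820 genes were listed at 0. The plot of ranked levels shows a long slope down to about the limit and a steep fall after it.

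**Figure D1:**
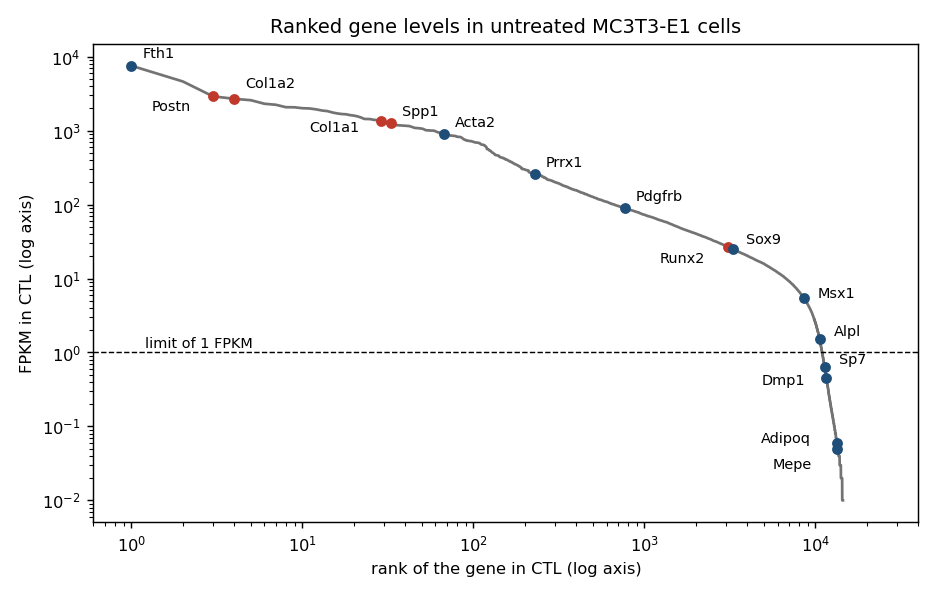
FPKM of each gene above 0 in CTL (log axis) against its rank (log axis), as a grey line, with the 5 label markers as red points and other named genes as blue points. Col1a2 and Postn sit near the top at 2688 and 2904 FPKM, Runx2 and Sox9 lie side by side at 26.8 and 24.9 FPKM, and Sp7, Dmp1, Adipoq and Mepe lie under the dashed limit of 1 FPKM.

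The highest gene was Fth1 (ferritin heavy chain, an iron storage protein) at 7537 FPKM, or 1.68% of the sum. Its partner Ftl1 (ferritin light chain) followed at 2575 FPKM, so the heavy chain was 2.93 times the light chain. Eef1a1, the elongation factor that brings aminoacyl-tRNA to the ribosome, was second at 4614 FPKM. The next ranks of the first 25 were mostly filled by ribosomal protein genes, 13 in all, from Rps2 at 2305 FPKM to Rps12 at 1429 FPKM. These genes gave 56 of the 100 highest, and 80 of the 81 listed ribosomal protein genes reached 1 FPKM. The remaining places in the first 25 went to S100a4 (a calcium-binding protein of fibroblasts and migrating cells, 2008 FPKM), Tpt1 (1869 FPKM), Eef2 (1757 FPKM), Actg1 (cytoplasmic γ-actin, 1661 FPKM), Vim (vimentin, the intermediate filament of mesenchymal cells, 1619 FPKM), Gapdh (1594 FPKM) and Mgp (matrix Gla protein, an inhibitor of calcification, 1439 FPKM).

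When genes were instead ordered by their share of fragments, which counts long transcripts more, the matrix genes led. Col1a2 took 1.37% of the estimated fragments, Fn1 (fibronectin) 1.05%, Postn 0.857% and Col1a1 0.753%. Fth1, with a short transcript, fell from rank 1 to rank 7 on this scale with 0.574%. The 10 highest genes held 6.92% of the summed FPKM, and the 100 highest held 28.7%.

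By the Gene Ontology terms carried in the table, constituents of the ribosome were the most complete class, with 149 of 149 genes at 1 FPKM or more and 16.9% of the summed FPKM. Genes of the extracellular matrix held 4.94% of the sum with 131 of 222 genes (59.0%, against 71.6% of all listed genes). Transcription factors (DNA-binding activity) had 311 of 456 genes at the limit (68.2%) but only 1.25% of the sum. G protein-coupled receptors were sparse, with 46 of 205 genes (22.4%) and 0.188% of the sum, and 0 of 31 genes of olfactory receptor activity reached 1 FPKM. The highest of the latter was Olfr1318 at 0.73 FPKM.

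Transcripts of fibrillar and beaded collagens were abundant in the culture. Of 24 collagen genes on the list, 19 were at 1 FPKM or more (79.2%, against 71.6% of all listed genes), and their median over all 24 was 64.2 FPKM. After collagen type I came the 3 chains of collagen type VI, a beaded filament around cells: Col6a1 at 851 FPKM, Col6a2 at 561 FPKM and Col6a3 at 407 FPKM. Col3a1, a fibrillar collagen of soft connective tissue, was at 416 FPKM, and Col12a1, which coats type I fibrils, was at 212 FPKM. Col5a2 and Col5a1, which start the assembly of type I fibrils, were at 161 and 89.5 FPKM. Collagens of basement membranes were lower, with Col4a1 at 88.3 FPKM and Col4a2 at 59.2 FPKM, and 2 chains of the kidney and lung form, Col4a3 and Col4a4, were at 0.01 and 0.02 FPKM.

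The α2 chain of collagen type I exceeded the α1 chain by 2.02 times on the FPKM scale. Small leucine-rich proteoglycans, which bind collagen and growth factors, covered a wide range. Bgn (biglycan) was at 910 FPKM, Dcn (decorin) at 823 FPKM and Ogn (osteoglycin) at 644 FPKM, while Prelp was at 88.99 FPKM, Lum (lumican) at 45.03 FPKM, Fmod (fibromodulin) at 7.15 FPKM and Kera (keratocan) at 0.62 FPKM. Serpinh1, the chaperone of collagen folding, stood at 463 FPKM, and Lox, the enzyme that cross-links collagen, at 88.3 FPKM. Of matrix-degrading enzymes Mmp2 (gelatinase A) was at 465 FPKM and Mmp13 (collagenase 3) at 17.6 FPKM, while the inhibitor Timp2 was at 533 FPKM and Mmp3 (stromelysin 1) at 0.34 FPKM (0.146 to 0.668). The genes of this paragraph that are no collagens were named after their values were seen.

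Markers of early bone cells were mostly high, those of mature osteoblasts and osteocytes were divided, and most markers of cartilage, fat and skeletal muscle were under 1 FPKM. The plot of lineage markers shows every listed gene of 12 lists. Among 23 preosteoblast and mesenchymal progenitor markers, 19 were at 1 FPKM or more (82.6%, against 71.6% of all listed genes) with a median of 89.1 FPKM. This count includes the 5 label markers. Without them it was 14 of 18 (77.8%), with a median of 62.7 FPKM. Beside the 5 markers above, Prrx1 (a homeobox factor of limb and skull mesenchyme) was at 259.57 FPKM, Vcam1 (a cell adhesion molecule of stromal cells) at 169 FPKM and Ly6a (Sca-1, a progenitor surface protein) at 159 FPKM. Cd44, the hyaluronan receptor, was at 127 FPKM. The 4 members under the limit were Thy1 (0.13 FPKM, 0.0273 to 0.387), Msx2 (0.38 FPKM), Nt5e (0.45 FPKM) and Eng (0.61 FPKM). Thy1, Nt5e and Eng encode CD90, CD73 and CD105, surface proteins that are widely used to define mesenchymal stromal cells.

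**Figure D2:**
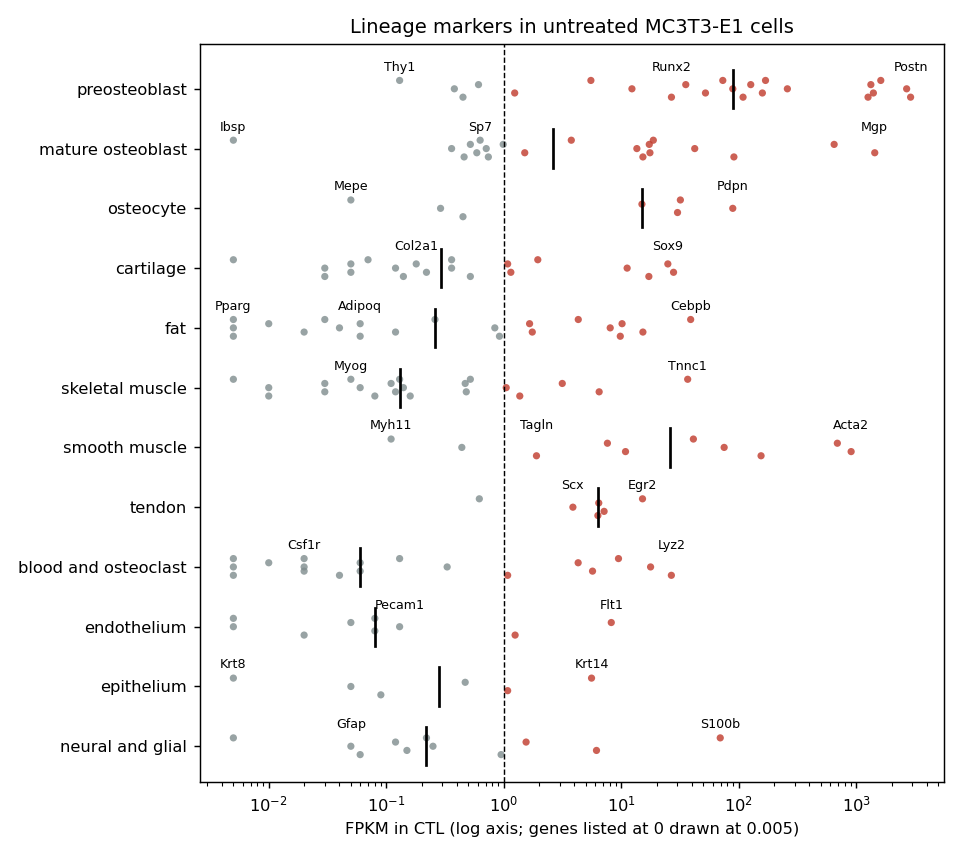
FPKM in CTL (log axis) of each listed member of 12 lineage lists, with genes at 1 FPKM or more in red, genes under it in grey, the list's median as a black bar and genes listed at 0 drawn at 0.005. The preosteoblast list has a median of 89.1 FPKM, the cartilage, fat and skeletal muscle lists have medians of 0.29, 0.26 and 0.13 FPKM, and the mature osteoblast list spans both sides of the dashed limit.

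Markers of the mature osteoblast were divided. Of 20 listed genes, 11 reached 1 FPKM (55.0%, against 71.6% of all listed genes), with a median of 2.635 FPKM. The intervals of 4 included the limit. The count depended on the limit, with 17 at 0.5 FPKM and 18 at 1 TPM (FPKM rescaled to a fixed sum over all genes). In this library 1 TPM was a slightly lower limit than 0.5 FPKM, so these counts are not separate checks. Ibsp (bone sialoprotein) was listed at 0, with a floor of 0.109 FPKM. Sp7 was at 0.63 FPKM from an estimated 26 fragments (0.419 to 0.940), so Runx2 was 42.5 times Sp7. Alpl (tissue-nonspecific alkaline phosphatase) was at 1.51 FPKM (1.12 to 1.98), and Phospho1, a phosphatase that starts mineral in matrix vesicles, was at 0.99 FPKM. Pth1r, the receptor for parathyroid hormone, was at 0.71 FPKM (0.434 to 1.07).

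Osteocalcin is encoded in the mouse by near-identical copies, so reads could have been split between them and each value is uncertain. Bglap2 was at 3.76 FPKM (2.16 to 5.93), Bglap3 at 0.74 FPKM (0.360 to 1.29) and Bglap at 0.46 FPKM from an estimated 2 fragments (0.0584 to 1.74). The high members of the mature list were genes that other connective tissue cells also use. These were Mgp at 1439 FPKM, Sparc (osteonectin) at 649 FPKM, Atf4 (a stress-responsive transcription factor needed for late osteoblasts) at 91.0 FPKM and Ank (a pyrophosphate exporter) at 42.2 FPKM. Omd (osteomodulin) was at 18.8 FPKM and Tnfrsf11b (osteoprotegerin, the decoy receptor that blocks osteoclast formation) at 13.6 FPKM.

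Of the osteocyte genes, 4 of 7 listed reached the limit (57.1%, against 71.6% of all listed genes). Pdpn (podoplanin, a membrane protein of early osteocyte processes that is also found in many stromal cells) was at 89.0 FPKM, Irx5 at 31.9 FPKM, Hyou1 at 30.15 FPKM and Fam20c, the kinase of secreted phosphoproteins, at 15.01 FPKM. The markers of embedded, mineralizing osteocytes were lower: Dmp1 at 0.45 FPKM (0.265 to 0.728), Phex at 0.29 FPKM (0.185 to 0.422) and Mepe at 0.05 FPKM from 1 estimated fragment. The other 3 genes of this list were not analysed here.

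Cartilage genes reached the limit in 7 of 20 cases (35.0%, against 71.6% of all listed genes), with a median of 0.29 FPKM. At a limit of 2 FPKM there were 4. The regulator Sox9 was at 24.9 FPKM (23.7 to 26.3), close to Runx2. Of the 15 listed cartilage matrix genes, 10 were under 1 FPKM. Among them Col2a1 was at 0.18 FPKM (0.0897 to 0.303), Col9a2 at 0.03 FPKM and Comp at 0.36 FPKM, and Col10a1 was listed at 0 (floor 0.0704 FPKM). Otor (a secreted protein of cartilage and inner ear) at 27.9 FPKM, Matn4 (matrilin 4) at 17.2 FPKM and Col11a1 (a minor fibrillar collagen) at 11.2 FPKM were the list's other members above 10 FPKM.

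Fat genes reached the limit in 8 of 21 cases (38.1%, against 71.6% of all listed genes), with a median of 0.26 FPKM. The master regulator Pparg was listed at 0 (floor 0.116 FPKM), and its partner Cebpa was at 0.92 FPKM. The early factors Cebpb and Cebpd, which many cells use, were at 39.0 and 15.3 FPKM, and Zfp423, a factor of preadipocytes, was at 8.06 FPKM. Products of mature fat cells were at or near 0: Fabp4 at 0.26 FPKM, Adipoq (adiponectin) at 0.06 FPKM from 1 estimated fragment and Cfd (adipsin) listed at 0. The lipid enzymes Dgat1 at 10.2 FPKM, Pnpla2 at 9.82 FPKM and Lipe at 4.31 FPKM were present.

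Skeletal muscle had 5 of 21 listed genes at the limit (23.8%, against 71.6% of all listed genes). Its median, 0.13 FPKM, was the lowest of the bone, cartilage, fat and muscle lists. The count was 3 at a limit of 2 FPKM and 8 at 1 TPM. Myog (myogenin, a master regulator) was at 0.05 FPKM, Ckm (muscle creatine kinase) at 0.11 FPKM, Acta1 (skeletal α-actin) at 0.47 FPKM and Ttn (titin) at 0.01 FPKM. The exceptions were Tnnc1, the troponin C of slow and cardiac fibres, at 36.8 FPKM and Pax3, a factor of muscle and neural crest progenitors, at 6.49 FPKM. Tnnt1 (slow troponin T) was at 3.15 FPKM, Actn3 at 1.37 FPKM and Des (desmin) at 1.05 FPKM.

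Smooth muscle genes differed from skeletal ones, with 8 of 10 listed genes at the limit (80.0%, against 71.6% of all listed genes) and a median of 26.0 FPKM. Acta2 (smooth muscle α-actin, which myofibroblasts also make) was at 906 FPKM, as high as β-actin (Actb, 861 FPKM). Cald1 (caldesmon) was at 691 FPKM, Myl9 at 155 FPKM and Actg2 at 75.2 FPKM. Smtn (smoothelin) was at 41.1 FPKM, Lmod1 at 10.9 FPKM and Synpo2 at 7.63 FPKM. The remaining 3 members were the lowest, with Tagln (SM22α) at 1.9 FPKM (1.34 to 2.58), Cnn1 (calponin 1) at 0.44 FPKM (0.240 to 0.736) and Myh11 (smooth muscle myosin) at 0.11 FPKM. Acta2 was 477 times Tagln. Actin genes share much of their coding sequence, so reads of Acta2, Actg2, Actb and Actg1 could have been assigned to the wrong copy in part.

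The tendon list had 5 of 6 listed genes at the limit (83.3%, against 71.6% of all listed genes), but at modest levels. These 5 ran from Scx (scleraxis, the tendon regulator) at 3.88 FPKM to Egr2 at 15.2 FPKM. Markers of cells that could be mixed into a culture were mostly near 0. In the blood and osteoclast list 6 of 18 genes reached the limit (33.3%), led by Lyz2 (lysozyme) at 26.7 FPKM, Ctsk (cathepsin K) at 17.8 FPKM, Mmp9 at 9.48 FPKM and Cd14 at 5.7 FPKM. The others at the limit were the megakaryocyte genes Pf4 at 4.3 FPKM (2.84 to 6.27) and Itga2b at 1.08 FPKM (0.808 to 1.43). Other genes of macrophages and osteoclasts were lower. Csf1r, the receptor that macrophages and osteoclast precursors need, was at 0.02 FPKM, and Cd68 and the regulator Spi1 were at 0.06 FPKM each. Acp5 (tartrate-resistant acid phosphatase) was listed at 0. Endothelium had 2 of 9 genes at the limit (22.2%, and 1 at 2 FPKM), with Flt1 (a VEGF receptor) at 8.23 FPKM and Pecam1 at 0.13 FPKM. Epithelium had 2 of 6 (33.3%, and 1 at 2 FPKM), with Krt14 at 5.59 FPKM and Krt8 listed at 0. Neural and glial markers had 3 of 11 (27.3%), with S100b (a calcium-binding protein that chondrocytes also make) at 69.6 FPKM, Tubb3 at 6.16 FPKM and Gfap at 0.05 FPKM.

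Of the transcription factors on the list, 116 of 163 were at 1 FPKM or more (71.2%), close to the 71.6% of all listed genes, with a median of 8.22 FPKM. The groups differed in their share. In the osteoblast group 8 of 11 genes reached the limit (72.7%, again close to that share). Among them Atf4 was at 91.0 FPKM, Cbfb (the partner subunit of RUNX proteins) at 39.97 FPKM, Runx2 at 26.8 FPKM, Runx1 at 10.3 FPKM and Runx3 at 8.21 FPKM. Dlx5, a homeobox factor upstream of Sp7, was at 12.3 FPKM, whereas its relatives Dlx6 and Dlx3 were at 0.61 and 0.06 FPKM.

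The group of cranial mesenchyme and neural crest factors had 21 of 27 listed genes at the limit (77.8%, against 71.6% of all listed genes). Its leaders, Prrx1 at 259.57 FPKM, Prrx2 at 189.75 FPKM and Six2 at 105 FPKM, are homeobox genes of head and limb mesenchyme. Alx1 and Alx4, which pattern the face and skull, were at 58.2 and 26.1 FPKM. En1, which is active in calvarial bone, was at 23.8 FPKM and Tfap2b, a neural crest factor, at 21.03 FPKM. Twist1, which restrains Runx2 in skull sutures, was at 52.1 FPKM, against 1.24 FPKM for Twist2. Msx1 was at 5.52 FPKM and Msx2 at 0.38 FPKM.

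HOX genes mark position along the trunk and limbs and are silent in most of the head skeleton. Of 19 listed members, 4 were at the limit (21.1%, against 71.6% of all listed genes), and the median was 0.23 FPKM. The 4 were Hoxa5 at 2.66 FPKM (2.07 to 3.40), Hoxa10 at 2.65 FPKM (2.06 to 3.34), Hoxa6 at 2.58 FPKM (1.72 to 3.79) and Hoxa3 at 1.94 FPKM (1.51 to 2.47). All 4 belong to the HOXA cluster, and Hoxa5, the highest, was at 0.0103 times the level of Prrx1. Another 20 HOX genes of the list were not analysed here. Regulators of other lineages had 0 of 14 listed genes at the limit, and the highest was Gata2, a blood and endothelial factor, at 0.67 FPKM (0.460 to 0.961).

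**Figure D3:**
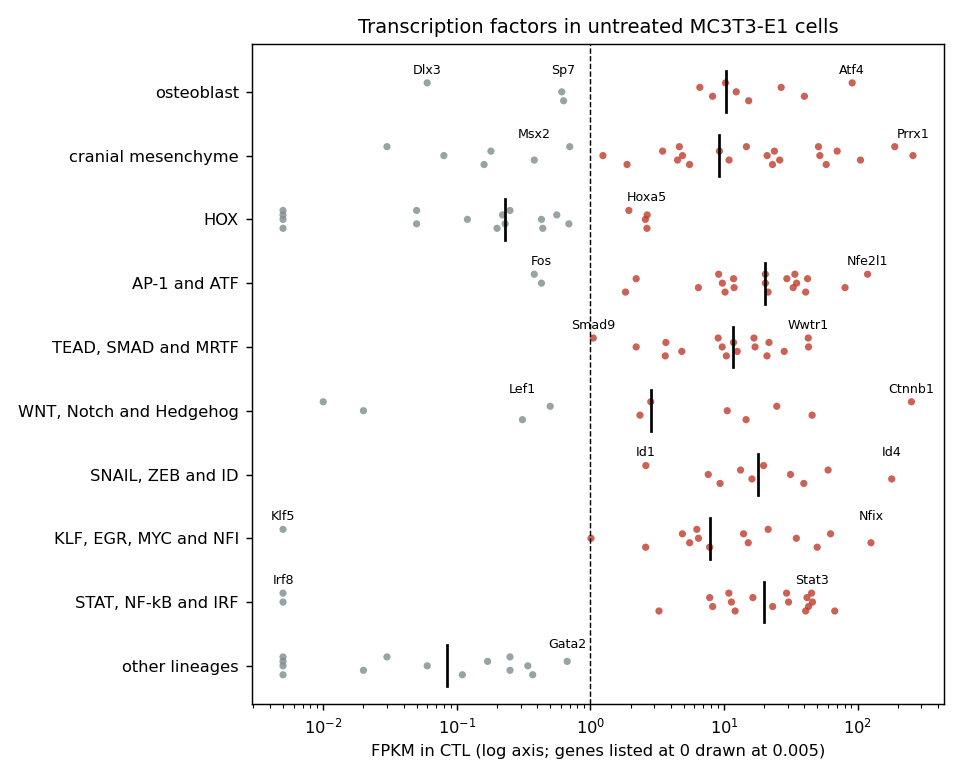
FPKM in CTL (log axis) of the listed transcription factors in 10 groups, with genes at 1 FPKM or more in red, genes under it in grey, the group's median as a black bar and genes listed at 0 drawn at 0.005. Factors of cranial mesenchyme reach 259.57 FPKM (Prrx1), HOX genes reach 2.66 FPKM (Hoxa5), and the factors of other lineages all lie under the dashed limit of 1 FPKM.

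Groups of signal-dependent factors were mostly above the 71.6% of all listed genes. All 17 listed genes of the TEAD, SMAD and MRTF group reached the limit, from Smad9 at 1.05 FPKM (0.826 to 1.31) to Wwtr1 (TAZ) at 42.9 FPKM and Yap1 at 42.7 FPKM, the partners of TEAD factors. All 10 genes of the SNAIL, ZEB and ID group did so as well. In it the ID proteins, which block basic helix-loop-helix factors, were uneven: Id4 was at 180.0 FPKM and Id1, a common BMP target, at 2.6 FPKM, a ratio of 69.2. In the AP-1 and ATF group 19 of 21 genes reached the limit, with Nfe2l1 at 119 FPKM, Nfe2l2 (NRF2, the regulator of antioxidant genes) at 80.5 FPKM, Fosl2 at 42.2 FPKM and Jun at 32.9 FPKM. The immediate early genes Fos and Atf3 were at 0.43 and 0.38 FPKM.

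The group of WNT, Notch and Hedgehog factors was below the 71.6% of all listed genes, with 7 of 11 genes at the limit (63.6%). Ctnnb1 (β-catenin, the transcriptional mediator of WNT signals and a part of cell junctions) was at 253 FPKM. Its DNA-binding partners differed: Tcf7l1 was at 24.8 FPKM and Tcf7l2 at 14.6 FPKM, while Tcf7 and Lef1 were at 0.5 and 0.31 FPKM. Of the Hedgehog factors Gli3, mainly a repressor, was at 10.6 FPKM, Gli1, a target and activator, at 2.83 FPKM and Gli2 at 0.01 FPKM. In the group of STAT, NF-kB and IRF factors 16 of 18 genes reached the limit, among them Stat3 at 45.9 FPKM and Nfkb2 at 42.95 FPKM, and the myeloid or lymphoid members Irf8 and Stat4 were listed at 0.

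Among receptors, 134 of 192 listed genes were at 1 FPKM or more (69.8%, close to the 71.6% of all listed genes), with a median of 6.815 FPKM. In the FGF family Fgfr1 led at 109 FPKM, followed by Fgfr2 at 35.4 FPKM and Fgfr3 at 2.64 FPKM, and Fgfr4 was at 0.08 FPKM. Both PDGF receptors, which serve mesenchymal growth, were high, with Pdgfrb at 89.1 FPKM and Pdgfra at 73.2 FPKM. Axl, a receptor for Gas6, was at 97.5 FPKM, and Ddr2, a kinase receptor for fibrillar collagen, was at 60.6 FPKM. Egfr was at 38.7 FPKM, while Erbb3 was at 0.07 FPKM.

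TGF-β and BMP receptors included Tgfbr2 at 82.6 FPKM, Bmpr1a at 44.9 FPKM, Tgfbr3 at 38.6 FPKM and Acvr1 at 36.2 FPKM. Endothelial or restricted members of this family were under the limit, such as Acvrl1 at 0.02 FPKM and Acvr1c at 0.01 FPKM. WNT receptors were led by Fzd1 at 68.4 FPKM and by the coreceptors Lrp6 at 46.3 FPKM and Lrp5 at 34.2 FPKM, of which Lrp5 is known for its control of bone mass. For Notch, Notch2 was at 38.2 FPKM and Notch1 at 19.7 FPKM. For Hedgehog, Gas1, a coreceptor, was at 194 FPKM and Smo, the signal transducer, at 54.1 FPKM, whereas the receptor and target Ptch1 was at 2.35 FPKM.

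Cytokine receptors reached the limit in 24 of 29 cases (82.8%, against 71.6% of all listed genes). Tnfrsf1a, the main TNF receptor of connective tissue, was at 84.7 FPKM, Il11ra1 at 60.6 FPKM, Ghr (growth hormone receptor) at 59.6 FPKM and Il6st (gp130, the shared chain of the IL-6 family) at 50.7 FPKM. In the innate group Tlr2 was at 14.9 FPKM and Tlr4 at 6.08 FPKM, and the atypical chemokine receptor Ackr3 at 58.0 FPKM stood far above Cxcr4 at 0.08 FPKM. The list's G protein-coupled receptors were its sparsest group, with 12 of 27 at the limit (44.4%). Within it S1pr1, a receptor for sphingosine 1-phosphate, was at 128 FPKM and F2r (thrombin receptor) at 21.6 FPKM, and of the prostaglandin E2 receptors Ptger1 was at 10.99 FPKM and Ptger4 at 0.66 FPKM.

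Nuclear receptors reached the limit in 22 of 31 cases (71.0%, close to the 71.6% of all listed genes). Thra (thyroid hormone receptor α) was at 75.4 FPKM, Nr3c1 (glucocorticoid receptor) at 58.7 FPKM and Rarg (retinoic acid receptor γ) at 55.2 FPKM. Hormone receptors of bone were lower, with Vdr (vitamin D) at 10.3 FPKM, Esr2 (oestrogen β) at 10.2 FPKM and Esr1 (oestrogen α) at 1.06 FPKM. Integrins were led by Itgb1 at 197 FPKM, Itgb5 at 129 FPKM, Itgav at 50.5 FPKM and Itga11, the α chain that binds collagen type I in mesenchymal cells, at 40.6 FPKM. Itgb2, the chain of leukocytes, was at 0.32 FPKM.

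Ligands were less complete than receptors: 66 of 119 listed genes reached the limit (55.5%, against 71.6% of all listed genes), with a median of 1.81 FPKM. The most abundant were Mif (macrophage migration inhibitory factor) at 509 FPKM, Ptn (pleiotrophin, a heparin-binding growth factor of bone) at 429 FPKM and Gas6 at 229 FPKM. Csf1, the growth factor of macrophages and osteoclast precursors, was at 138 FPKM, and Cxcl12, the chemokine that holds haematopoietic cells in marrow, at 133 FPKM. Sema3a, which is known to protect bone, was at 98.9 FPKM and Fgf7, a mesenchymal factor for epithelia, at 94.7 FPKM.

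Within the ligand families 1 or a few members carried most of the level. Tgfb3 at 39.15 FPKM was 3.57 times Tgfb1 at 10.98 FPKM. Bmp4 was at 9.9 FPKM, while Bmp6 was at 0.02 FPKM and Bmp3, Bmp5 and Bmp8a were listed at 0. The WNT ligands were led by Wnt10a at 20.1 FPKM and Wnt10b at 17.95 FPKM, the latter a ligand that favours bone over fat. Of 16 WNT and R-spondin genes, 7 reached the limit (43.75%, against 71.6% of all listed genes). Igf1 and Igf2 were alike at 58.15 and 58.46 FPKM. The interleukins of the list were uneven. Il18 was at 7.9 FPKM (6.25 to 9.81), Il6 was at 0.99 FPKM from an estimated 11 fragments (0.515 to 1.84), and Il1a and Il33 were at 0.04 and 0.06 FPKM. The chemokines Cx3cl1, Ccl2, Ccl7 and Ccl5 were at 32.5, 22.1, 20.3 and 20.03 FPKM.

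Antagonists of these ligands, secreted or on the membrane, reached the limit in 18 of 25 cases (72.0%, against 71.6% of all listed genes). Igfbp4, which binds IGF, was at 420.11 FPKM, and Fstl1 was at 191 FPKM, Dkk3 at 172 FPKM and Chrdl1, which binds BMP, at 107 FPKM. In the BMP and activin group 10 of 11 genes were present, including Twsg1 at 67.05 FPKM, Grem1 (gremlin 1) at 41.0 FPKM and Fst (follistatin) at 21.6 FPKM. The WNT antagonists had 4 of 10, with Sfrp2 at 34.6 FPKM and Sfrp1 and Frzb at 0.05 and 0.03 FPKM.

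Of 45 ligand and receptor pairs, 36 had both sides listed. In 25 of them both sides were at 1 FPKM or more, in 5 the ligand alone, in 5 the receptor alone and in 1 neither (Gdnf and Ret). Since 71.6% of all listed genes were at 1 FPKM or more, many pairs of any listed genes would have both sides there. Among these 25, after Col1a1 with Ddr2, those with the highest ligand levels were Gas6 with Axl (229 and 97.5 FPKM), Cxcl12 with Ackr3 (133 and 58.0 FPKM) and Fgf7 with Fgfr2 (94.7 and 35.4 FPKM). Ligands without their receptor were Csf1 (Csf1r at 0.02 FPKM), Cxcl12 towards Cxcr4 (0.08 FPKM), Nrg1 at 16.3 FPKM (Erbb3 at 0.07 FPKM), Pthlh at 1.98 FPKM (Pth1r at 0.71 FPKM) and Angpt1 at 1.00 FPKM (Tek at 0.02 FPKM). The reverse held for Il11ra1 at 60.6 FPKM (Il11 at 0.13 FPKM), Il1rl1 at 17.6 FPKM (Il33 at 0.06 FPKM), Il6ra at 3.57 FPKM (Il6 at 0.99 FPKM), Ptch1 at 2.35 FPKM (Ihh at 0.03 FPKM) and Ednra at 2.01 FPKM (Edn1 at 0.14 FPKM). The intervals of Il6, Pth1r, Angpt1, Fgf18 and Hgf included 1 FPKM, so the state of their pairs is uncertain. The values are per gene, so splice forms of a receptor such as Fgfr2 were not told apart. Transcript levels on both sides do not show that a signal was sent or received.

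**Figure D4:**
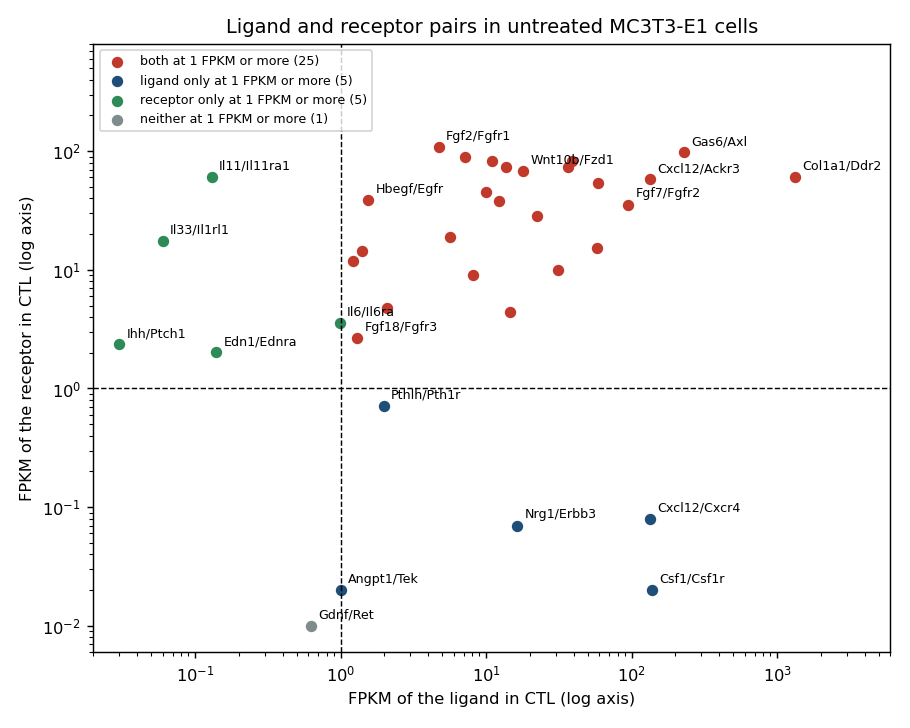
FPKM of the receptor against FPKM of the ligand in CTL (both log axes) for the 36 pairs with both sides listed, coloured by which sides reach 1 FPKM. The upper right holds 25 pairs such as Gas6/Axl (229 and 97.5 FPKM), and the lower right holds 5 ligands without their receptor, such as Csf1/Csf1r (138 and 0.02 FPKM).

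Some genes lay so near the limit that the estimated counting error does not place them on either side. Just inside were Angpt1 at 1.00 FPKM, Egr3 at 1.01 FPKM, Itgb4 at 1.03 FPKM and Bdkrb1, Des and Smad9 at 1.05 FPKM each. Just outside were Col7a1, Il6 and Phospho1 at 0.99 FPKM each, then Sema3e at 0.96 FPKM, Map2 at 0.95 FPKM and Ereg at 0.94 FPKM. In all, 42 of the 710 listed genes of the lists had an interval that included 1 FPKM.

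The listed genes of the cell cycle all reached the limit, 24 of 24 (against 71.6% of all listed genes), with a median of 16.2 FPKM. The other 3 genes of this list, all inhibitors, were not analysed here. The markers of dividing cells Top2a (29.95 FPKM), Ccna2 (19.3 FPKM) and Mki67 (17.3 FPKM) stood beside the G1 cyclin Ccnd1 (250.25 FPKM) and the inhibitors Cdkn1a (p21, 154 FPKM) and Cdkn1b (p27, 82.5 FPKM). The housekeeping list had 18 of 18 genes at the limit, with the highest level in Eef1a1 at 4614 FPKM, and none was listed at 0. Of the genes whose transcripts or proteins the study followed by other assays, the inflammatory Ptgs2 (COX-2) was at 6.1 FPKM (5.49 to 6.74) and Nos2 (inducible nitric oxide synthase) at 0.17 FPKM from an estimated 9 fragments (0.0815 to 0.338). This last group was chosen after the values were seen.

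Promoter composition went with level across the genes. Promoters were found for 8800 of the 10940 genes, in 11230 windows, and the matches are again descriptions of letters. Their median GC content was 61.0% with 21 CpG, against 52.7% and 7 CpG for all 32851 promoters. The GC box was in 64.0% of them against 35.7% of all, and TATAAA in 6.75% against 13.6%. The RUNX core was in 3.62% against 5.27%, and the CCAAT box was in 38.4% against 37.4%.

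By level, the share with a GC box was 31.9% for genes listed at 0, 38.8% for those above 0 and under 1 FPKM, 58.6% for 1 to 10 FPKM, 67.5% for 10 to 100 FPKM and 65.45% for 100 FPKM or more. TATAAA did not follow one direction: its share was 14.55% for genes at 0, 6.14% for 10 to 100 FPKM and 11.5% for 100 FPKM or more. This last class holds the windows of Postn, Spp1 and Col1a2. Genes differ in base composition, share promoters and have several windows each, so these shares are a description over windows and not a test.

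**Figure D5:**
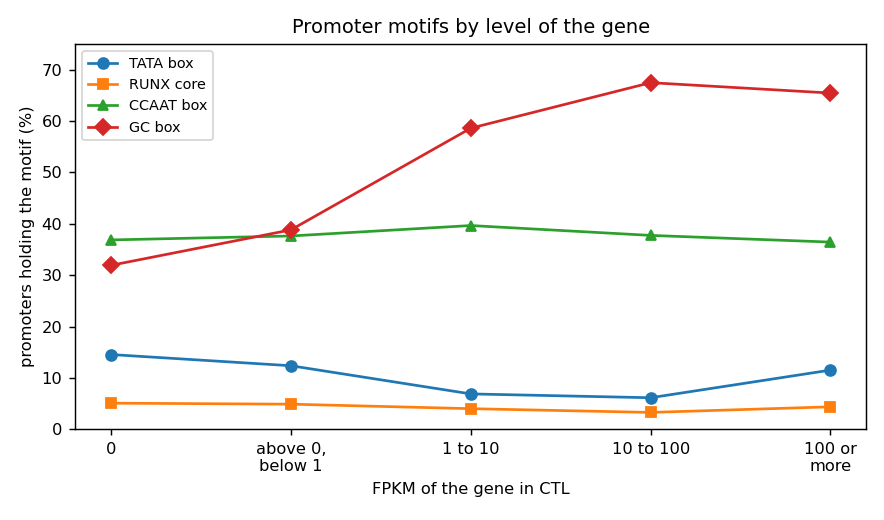
Share of promoter windows that hold each of 4 motifs (percent) by the level of the gene in CTL, from genes listed at 0 to genes at 100 FPKM or more, with 1 line per motif joining the classes. The GC box goes from 31.9% to 67.5% and 65.45%, TATAAA falls and then stands at 11.5% in the highest class, and the RUNX core lies between 3.28% and 5.085% in all classes.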

How the data were processed

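Total RNA of MC3T3-E1 cells was sequenced by the authors, with 1 library per condition, and only the CTL library was used here. Per the study's methods, reads with adapters or of low quality were removed, and the others were aligned with HISAT2, processed with SAMtools and counted with HTSeq. The submitters' processing notes also name StringTie and the build mm9. The values were deposited as FPKM, with 2 decimals for each gene. How FPKM was made from the counts is not given in the sources used here. The columns of the Ti and Ti+Se-Met libraries were not compared, and 0 columns of values were left unmatched.

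Genes with at least 1 FPKM in CTL were kept. Levels, shares, list counts and ratios were obtained in Python (version 3.11.15) using pandas 2.3.3, scipy 1.17.1 and, for arrays, numpy 2.4.6, with no pseudocount for the printed values. Figures were drawn with matplotlib 3.10.9. FPKM is not a count, so no count model was used, and with 1 library there was no test. An estimate of depth came from the spacing of low values, which lie 1 fragment apart, in 453 genes with 1 transcript of 350 to 1000 bases (GENCODE M21 lengths, 150 bases subtracted). Of 118 such values, 61.0% lay within 0.09 of a whole fragment at the depth chosen. Evenly spread values would give 18% at a depth fixed beforehand, but this depth was picked to fit the same values best. The genes added up to 102% of the fragments, a sum that does not depend on the depth and so is no check of it. The fragments and intervals of single genes are therefore approximate, and they also rest on the mean transcript length. The estimate was also run on simulated data made with the same 150 bases subtracted, which does not test that choice. Lengths were found for 95.3% of listed genes and 98.15% of those kept.

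Gene symbols were matched to 19 lists, and to 1 list of assayed genes chosen after their values were seen. In all 904 genes were looked up, 710 were listed, and the other 194 were not analysed here. Named genes are the 25 highest, the 5 label markers, up to 6 high members of each list and up to 6 defining members at or near 0, the described pairs and those next to the limit. Some genes that fall under this rule are not reported here. Other named genes were chosen after their values were seen. The genes and lists were chosen with earlier results of these data known. Promoters came from RefSeq on GRCm38.p6 and were matched by gene, and no coordinate was taken from mm9. The 4 printed promoters were chosen with levels and motifs known.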

Additional observations from a re-analysis of the deposited data

How the results depend on the processing

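No paired analysis was possible because there was only 1 untreated library, and for the same reason no library could be left out. The limit of 1 FPKM was replaced by 0.5 FPKM, 2 FPKM and 1 TPM (FPKM rescaled to a fixed sum over all genes). With a summed FPKM of 448285, 1 TPM was a slightly lower limit than 0.5 FPKM, and 11568 genes passed it against 11493. At 0.5 FPKM the mature osteoblast list had 17 genes past the limit instead of 11, and at 1 TPM it had 18. At 2 FPKM the cartilage list had 4 instead of 7, the skeletal muscle list 3 instead of 5, the endothelium list 1 and the epithelium list 1. At 1 TPM skeletal muscle had 8. These lists hold genes between 0.5 and 2 FPKM, so their counts move with the limit by construction. Without ribosomal protein genes, the 10 highest genes held 7.82% of the sum instead of 6.92%, and the 100 highest 24.5% instead of 28.7%. As shares of estimated fragments these were 7.36% and 20.6%. With 0 bases subtracted from transcript lengths the depth estimate was 11500000 fragments instead of 14300000. Another 45 recomputed counts, among them the number of genes at the limit, stayed within 1.5 times of the value in the report. Depth limits what can be said of genes under about 0.1 FPKM, which rest on a few fragments.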

Other observations

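Genes that interferon is known to induce had uneven levels in the untreated library. Ifitm3, a membrane protein that restricts virus entry, was at 1266 FPKM and rank 32, Ifi27l2a at 818 FPKM and Ifitm2 at 707 FPKM. B2m, the light chain of MHC class I, was at 1059 FPKM, Isg15 at 118 FPKM and Bst2 (tetherin) at 71.2 FPKM. Others were lower, with Ifitm1 at 63.2 FPKM, Irf7 at 10.9 FPKM and Cxcl10 at 5.57 FPKM. Their levels had no untreated replicate to be read against.

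The CCN family of matricellular proteins was uneven. Ccn3 was at 1164 FPKM, Ccn1 (CYR61) at 238 FPKM and Ccn5 at 96.2 FPKM, while Ccn2 (CTGF) was at 0.83 FPKM from an estimated 27 fragments (0.553 to 1.22). Ccn1 and Ccn2 are both widely used as targets of YAP and TAZ, whose own transcripts Yap1 and Wwtr1 were at 42.7 and 42.9 FPKM.

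Lysosomal and vesicle proteins were among the highest genes, with Ctsb (cathepsin B) at 1234 FPKM, Cd63 at 1173 FPKM and Psap (prosaposin) at 1011 FPKM. Cell contacts included Gja1 (connexin 43, the main gap junction protein of bone cells) at 336 FPKM and Cdh11 (osteoblast cadherin) at 315 FPKM, against 45.7 FPKM for Cdh2. Of the genes annotated with the general term ion channel activity, 28 of 96 reached 1 FPKM (29.2%, against 71.6% of all listed genes). The highest of these were P2rx4 at 39.1 FPKM, Asic1 at 28.2 FPKM and Trpm7 at 28.1 FPKM. Pkd2, annotated as a potassium channel, was at 107 FPKM. All genes of these paragraphs were chosen after their values were seen.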
